A study of Mus musculus with 24 samples.

Results

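N6-methyladenosine (m6A) sites with an adenine just before the methylated base were described in mouse dorsal root ganglia. They were the sites of both miCLIP lists whose 5-letter context, with the methylated A in the middle, had A as its second letter. They are called A-before sites here, and the sites with G in that place are called G-before sites. No listed site had any other second letter. In the SNL library 3232 of 18677 sites were A-before, and in the naive library 2379 of 14446. Counting a base listed in both libraries once, there were 5202 A-before sites among 29291 sites, against 24089 G-before sites, and 409 A-before sites were in both lists.

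The methyl group is placed on messenger RNA by a complex of Mettl3, the catalytic subunit, and Mettl14, its RNA-binding partner. The complex favours adenines within the DRACH motif, where D is A, G or T, R is A or G, and H is A, C or T. The base before the methylated A is the R of that motif, and G in that place is the classical form of the motif. In miCLIP an antibody against m6A is crosslinked to RNA with ultraviolet light, and the crosslink leaves mutations in the sequenced reads next to the modified base. The dorsal root ganglion holds the cell bodies of sensory neurons, whose axons run in the sciatic nerve and regrow after a lesion.

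L4/5 ganglia of C57BL/6 mice were used. The injured groups carried a sciatic nerve lesion, SNLD1 being day 1 after it, and the comparison groups are titled naive. The treatment label names a nerve crush or a sham operation for every library, so whether the naive mice were sham-operated is not settled here. The miCLIP data were 1 wild-type SNL library, whose title gives no day, and 1 wild-type naive library. MeRIP-seq, which counts RNA pulled down with an antibody against m6A (IP) beside input RNA, held 3 IP and 2 input wild-type libraries at SNLD1 and as many in naive mice. RNA-seq held 3 libraries each of Mettl14cKO at SNLD1, wild type at SNLD1, Mettl14cKO naive and wild type naive. The knockout is labelled Mettl14-/-, and the Cre driver that makes it conditional is not given in the sources used here.

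RNA-seq libraries held 5707837 to 12639160 counts and MeRIP-seq libraries 846785 to 19653733. Mettl14 stood at 14.2 to 18.9 CPM (gene counts scaled to a common library size) in the 6 Mettl14cKO libraries, below the 19.4 to 24.1 CPM of the 6 wild-type libraries. Neither difference was called over all genes by edgeR (adjusted p = 0.345 at SNLD1 and 0.316 in naive mice). The 9 sensory neuron markers were above 1 CPM in every RNA-seq library, and their summed level was 7685 to 10799 CPM. Schwann cell and satellite glia markers were also present in every library, while 4 muscle and liver markers summed to 1.04 to 3.99 CPM. In whole ganglia, fewer cells of a type and less RNA per cell cannot be told apart.

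Letters around a methylated base could be shown for the sites that fell in a RefSeq promoter window (GRCm38.p6, 250 bases before to 50 after a gene's start). The 716 distinct sites inside such windows carried there the same 5 letters as in the authors' lists, 716 of 716. Of the sites whose window belonged to their host gene, 59 were A-before and 327 G-before. The 3 A-before sites of this set that were in both lists come first, then the 2 with the most reads among those in 1 list, then the 2 G-before sites with the most reads for comparison. Each line runs 5′ to 3′ on the strand of the gene, with the 5-letter context in capitals and the methylated A as its middle letter.
Actr1b, chr1:36709905-36709925, minus strand: ctccccgcGAACCttgtagcc
Prelid3b, chr2:174472910-174472930, minus strand: gggccggcGAACTtctgtgcc
Otud5, chrX:7841973-7841993, plus strand: cggtcctcGAACCggtgtcct
Asic2, chr11:81152934-81152954, minus strand: gactggccAAACCaggcatgg
Pitpnc1, chr11:107470688-107470708, minus strand: gtggctgcAAACTcacgggca
Fbxo2, chr4:148160666-148160686, plus strand: ttctctctTGACAgcaccgca
Hspa12a, chr19:58860943-58860963, minus strand: agaggctcAGACCtagctcgg

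The Actr1b site, in a gene for an actin-related protein of the dynactin complex, had 1 mutated read among 11 reads in each library. The Prelid3b site had 1 of 4 reads mutated in the SNL library and 1 of 3 in the naive library. The site in Asic2, which encodes an acid-sensing ion channel subunit, was listed in the SNL library alone, with 1 of 12 reads mutated. At the G-before Hspa12a site 2 of 23 reads were mutated in the SNL library and 3 of 18 in the naive library. These examples show the usual form of an A-before site, which is a base with few reads and 1 mutated read.

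A-before sites made up 17.3% of the SNL list (95% exact binomial interval 16.8 to 17.9) and 16.5% of the naive list (15.9 to 17.1). The difference, SNL minus naive, was 0.84 percentage points (Newcombe interval 0.02 to 1.65), and the share was higher in the SNL list on 13 of 20 chromosomes. Each condition had 1 library, so these intervals cover counting error only, treat sites as independent and give no test of injury. Across chromosomes the share ran from 14.8% on chromosome 5 to 20% on chromosome X in the SNL list, and from 14.4% on chromosome 7 to 20.9% on chromosome 13 in the naive list. The number of A-before and G-before motifs in the transcripts was not analysed here, so the shares are not rates per motif.

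Among A-before sites the first letter was most often G. It was G at 62.4% of A-before sites (60.7 to 64.1) and at 45.9% of G-before sites (45.1 to 46.7) in the SNL list. The shares were 64.2% (62.3 to 66.2) and 46.8% (45.9 to 47.7) in the naive list. T came first at 12.01% of A-before and 25.1% of G-before sites in the SNL list, and at 10.5% and 25.4% in the naive list. The last letter split more evenly, with C at 41.9% of A-before and 43.3% of G-before sites in the SNL list and at 41.4% and 43.9% in the naive list. T was last at 31.0% of A-before (29.4 to 32.7) and 28.2% of G-before sites (27.5 to 28.9) in the SNL list. The naive list gave 31.1% (29.3 to 33.1) and 28.6% (27.8 to 29.4), with intervals that overlapped. A-before and G-before sites thus differed in their first letter by more than the intervals, and much less in their last.

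The commonest of the 9 A-before contexts was GAACC, with 847 sites in the SNL list and 659 in the naive list. GAACT followed with 635 and 465 sites, and GAACA with 536 and 404. The rarest was TAACA, with 79 and 68 sites. Among the 9 G-before contexts GGACC led, with 2961 and 2412 sites, and TGACA was rarest in both lists, with 1028 and 785. Every G-before context was thus commoner than every A-before context in the SNL list and in the naive list.

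Read coverage, written k, is the number of reads over the methylated base, and it was nearly the same in both classes. Its median was 4 reads for A-before and for G-before sites in either library. Mean k was 5.77 for A-before and 5.91 for G-before sites in the SNL list, and 5.45 and 5.63 in the naive list. The lowest k in the lists was 2, and the highest was 48 for A-before and 51 for G-before sites in the SNL list and 40 and 54 in the naive list. The mutated share, the mutated reads divided by k, had a median of 0.25 in each class and library and nowhere exceeded 0.5. Medians of coverage and mutated share therefore showed no difference between the classes.

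Repeated mutation was where the classes separated. Sites with 2 or more mutated reads were 147 of 3232 A-before sites (4.55%, 3.86 to 5.32) and 1770 of 15445 G-before sites (11.5%, 10.96 to 11.97) in the SNL list. In the naive list they were 87 of 2379 A-before sites (3.66%, 2.94 to 4.49) and 1335 of 12067 G-before sites (11.1%, 10.5 to 11.6). The difference, A-before minus G-before, was -6.91 percentage points (-7.75 to -5.99) in the SNL list and -7.41 (-8.30 to -6.41) in the naive list. At 3 or more mutated reads the counts were 14 A-before (0.433%) and 350 G-before sites (2.27%) in the SNL list, and 9 (0.378%) and 288 (2.39%) in the naive list. The most mutated reads at any A-before site were 6, and at any G-before site 10. Summed over all reads, 18.2% were mutated at A-before sites and 19.4% at G-before sites in the SNL list, and 19.1% and 20.3% in the naive list.

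The gap in repeated mutation was present at each depth where it could be seen. Since no mutated share passes 0.5, a site needs at least 4 reads to show 2 mutated ones, which leaves 5 coverage bins. The share with 2 or more mutated reads was lower for A-before sites in 5 of 5 bins in each library, with intervals that did not touch. With 10 to 19 reads it was 13.8% of A-before sites (10.6 to 17.5) and 30.4% of G-before sites (28.4 to 32.4) in the SNL list. The naive list gave 12.1% (8.17 to 17.0) and 32.6% (30.2 to 35.1). With 20 or more reads, 20 of 100 A-before sites and 204 of 437 G-before sites in the SNL list had them, and 13 of 76 and 154 of 322 in the naive list.

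**Figure D1:**
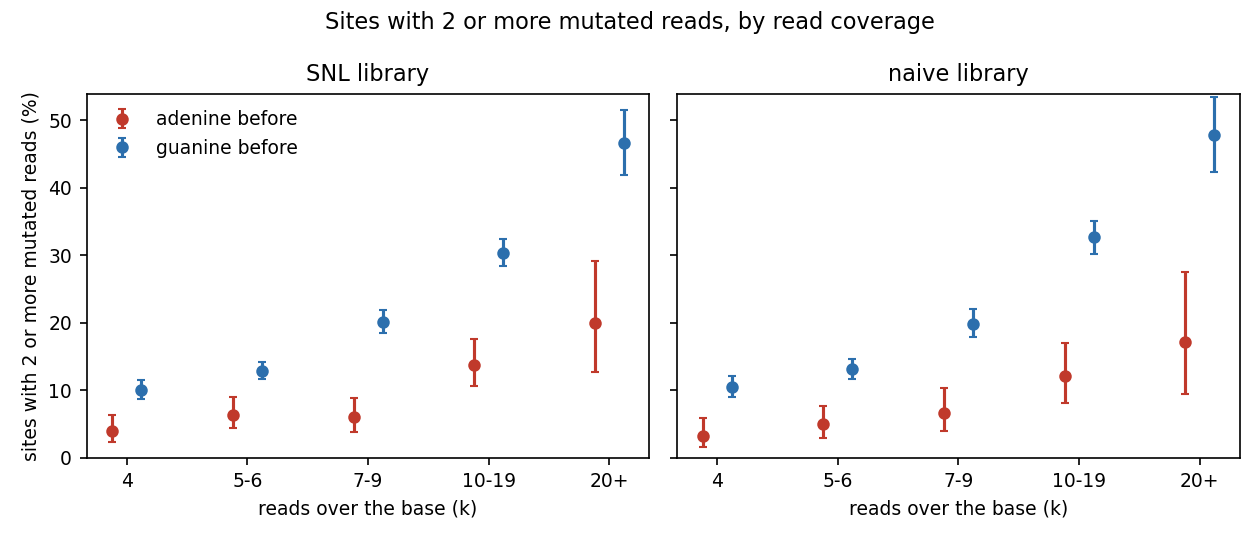
Percentage of sites with 2 or more mutated reads (vertical axis) in bins of reads over the base (horizontal axis), for A-before sites (red) and G-before sites (blue) in the SNL and naive libraries; points are shares and bars 95% exact binomial intervals. The A-before points lie below the G-before points in 5 of 5 bins of each library.

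A-before sites were also listed in both libraries less often. In the SNL list 409 of 3232 A-before sites (12.7%, 11.5 to 13.9) and 3423 of 15445 G-before sites (22.2%, 21.5 to 22.8) stood at a base that the naive list held too. Of the naive list the same bases were 17.2% of A-before sites (15.7 to 18.8) and 28.4% of G-before sites (27.6 to 29.2). The difference was -9.51 percentage points (-10.8 to -8.15) in the SNL list and -11.2 (-12.8 to -9.41) in the naive list. Put the other way, A-before sites were 10.7% of the 3832 shared sites and 18.8% of the sites in 1 list alone. Whether a site enters a list depends on the authors' site caller, which is not given in the sources used here.

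The gap in sharing was present at equal coverage. Sharing was lower for A-before sites in 7 of 7 coverage bins in each library, and the intervals did not touch in 5 of them in the SNL list and in 7 in the naive list. With 10 to 19 reads, 27.8% of A-before sites (23.5 to 32.5) and 48.1% of G-before sites (45.9 to 50.3) of the SNL list were shared. The naive list gave 38.8% (32.5 to 45.4) and 56.3% (53.7 to 58.8). At 2 reads the shares were closest, 4.75% and 6.78% in the SNL list and 5.73% and 11.3% in the naive list. When G-before sites were weighted to the coverage of A-before sites, 21.4% of them were shared in the SNL list and 27.5% in the naive list, little below their unweighted values.

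**Figure D2:**
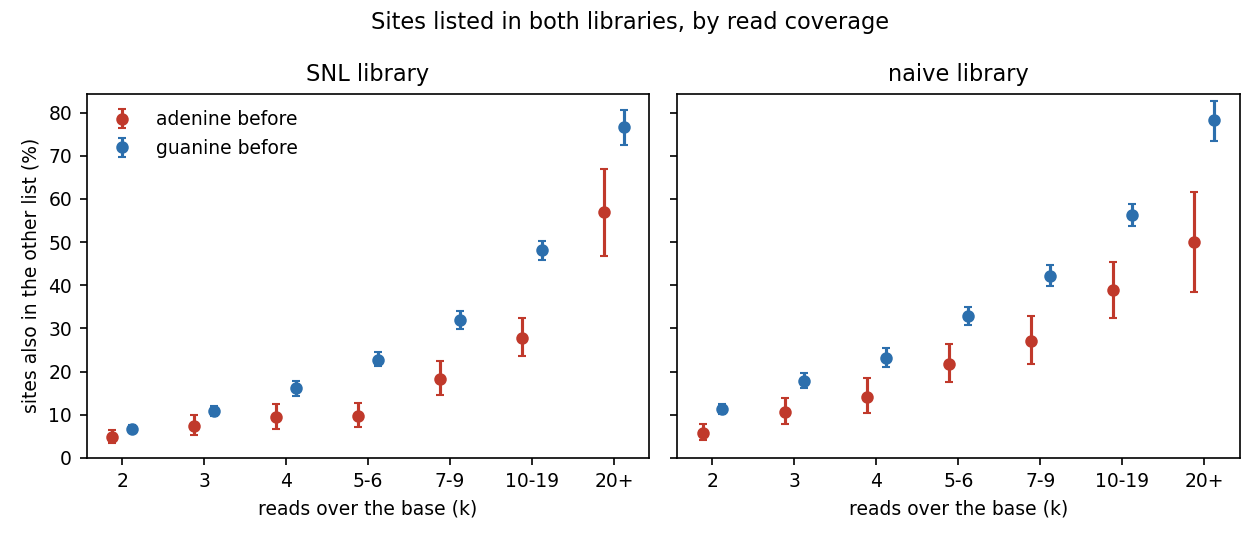
Percentage of sites also listed in the other library (vertical axis) in bins of reads over the base (horizontal axis), for A-before sites (red) and G-before sites (blue) in the SNL and naive libraries; points are shares and bars 95% exact binomial intervals. Sharing climbs with coverage in both classes, and A-before points lie below G-before points in 7 of 7 bins of each library.

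At an equal number of mutated reads the gap was smaller for sites with 1 mutated read. Among sites with 1 mutated read, 11.8% of A-before and 19.2% of G-before sites in the SNL list were shared, a difference of -7.47 points (-8.75 to -6.12). In the naive list they were 16.1% and 24.9%, a difference of -8.79 points (-10.5 to -7.03). Among sites with 2 or more mutated reads, the shares were 31.3% and 44.7% in the SNL list, a difference of -13.5 points (-20.8 to -5.23). For the naive list they were 46.0% and 56.3%, and the interval of the difference, -20.8 to 0.41 points, included 0.

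The gap was also present with the other letters of the context held equal. When each A-before context was set beside the G-before context with the same first and last letters, the A-before one was shared less often in 9 of 9 pairs and had 2 or more mutated reads less often in 9 of 9 pairs, in each library. GAACC sites were shared at 17.6% (15.1 to 20.3) in the SNL list and GGACC sites at 27.2% (25.6 to 28.9). In the naive list GAACC stood at 22.6% (19.5 to 26.0) and GGACC at 33.4% (31.5 to 35.3). A last letter C went with more repeated mutation inside both classes: 7.75% of A-before sites ending in C had 2 or more mutated reads in the SNL list, against 2.74% of those ending in A and 1.79% of those ending in T. None of the 130 TAACT sites of the SNL list had 2 mutated reads, which by the exact interval allows up to 2.80%. On 20 of 20 chromosomes, in each library, A-before sites were below G-before sites in both measures.

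Genes that hold both classes allow a comparison at the same transcript level. There were 1725 such genes in the SNL list and 1319 in the naive list, and each gene's G-before sites were weighted by its number of A-before sites. So weighted, 13.7% of A-before and 25.9% of G-before sites were shared in the SNL list, and 18.99% and 32.9% in the naive list. Sites with 2 or more mutated reads were 5.12% of A-before and 13.4% of G-before sites in the SNL list, and 4.14% and 12.99% in the naive list. Both gaps were thus present within genes. Mean k within genes was also lower at A-before sites, with 6.25 reads against 6.87 at G-before sites in the SNL list and 5.92 against 6.65 in the naive list.

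At the 409 A-before bases found in both libraries, the median k was 8 in the SNL list and 6 in the naive list, the same as at the 3423 shared G-before bases. At 12 of the 409 A-before bases (2.93%, 1.53 to 5.07) both libraries had 2 or more mutated reads, against 300 of 3423 G-before bases (8.76%, 7.84 to 9.76). At 335 A-before bases (81.9%) and 2179 G-before bases (63.7%) both libraries had 1 mutated read. Shared A-before sites were thus mostly seen through 1 mutated read in each library.

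Among the 10 shared A-before sites with the most reads, positions being in mm10, 4 lay in cytoskeletal genes. Tubb3, the neuronal beta-tubulin, had a GAACA site at position 123420823 of chromosome 8, plus strand, with 1 of 36 reads mutated in the SNL library and 1 of 35 in the naive library. Nefl, the light neurofilament subunit, had GAACA sites at positions 68084846 and 68084306 of chromosome 14, plus strand. The first had 1 of 33 and 1 of 34 reads mutated in the SNL and naive libraries, and the second 2 of 32 and 1 of 32. Tppp3, of the tubulin polymerization-promoting family, had a GAACC site at position 105468177 of chromosome 8, minus strand, with 2 of 37 reads mutated in the SNL library and 1 of 30 in the naive library. Depth at these bases was thus close between the libraries, and their mutated shares were low.

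Jun, a transcription factor of the AP-1 family that is induced in axotomised sensory neurons, held a further pair of these sites on chromosome 4, minus strand. The GAACA site at position 95050264 had 1 of 48 reads mutated in the SNL library and 1 of 22 in the naive library, and the TAACA site at position 95050313 had 2 of 46 and 1 of 18. More reads lay over both Jun bases in the SNL library. The remaining sites were in Basp1, which encodes a growth-cone membrane protein, Ccdc92, Ywhag, a 14-3-3 protein gene, and Sncg, the gene of gamma-synuclein. The Basp1 site (GAACC, position 25364787 of chromosome 15, minus strand) had 1 of 35 reads mutated in the SNL library and 3 of 39 in the naive library. The Sncg site (GAACC, position 34370905 of chromosome 14, minus strand) had 2 of 32 and 6 of 32, the most mutated reads of any A-before site in either list.

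The shared A-before sites with the most mutated reads, chosen after their values were seen, were the Sncg site and sites in Rhoq, Arhgdia, Epdr1 and Retreg1. The context was GAACC at 5 of these 5 sites. The Rhoq site, where the span of a further RefSeq gene overlaps, had 4 of 11 reads mutated in the SNL library (36.4%, 10.9 to 69.2) and 3 of 6 in the naive library (50%, 11.8 to 88.2). Retreg1, an endoplasmic reticulum receptor for autophagy known from human hereditary sensory neuropathy, had 4 of 25 (16.0%, 4.54 to 36.1) and 1 of 15 (6.67%, 0.169 to 31.9). At such depths the intervals of the 2 libraries overlapped widely.

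Along their host genes the classes lay in much the same places. Positions could be measured for sites in a gene span of known strand, 2427 A-before and 11942 G-before in the SNL list and 1791 and 9328 in the naive list. The final 10% of the span held 36.8% of A-before sites (34.9 to 38.8) and 34.8% of G-before sites (33.9 to 35.6) in the SNL list, and 36.2% (34.0 to 38.5) and 34.2% (33.3 to 35.2) in the naive list. In the first 10%, A-before sites were fewer in the SNL list, 11.8% (10.5 to 13.1) against 14% (13.4 to 14.6) of G-before sites. In the naive list these shares were 12.6% (11.1 to 14.2) and 14.6% (13.9 to 15.3), with intervals that touched. The median distance to the gene's end was 3835 bases for A-before and 4008.5 for G-before sites in the SNL list, and 3659 and 3993 in the naive list. Gene spans include introns, and exons and UTRs were not used here.

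**Figure D3:**
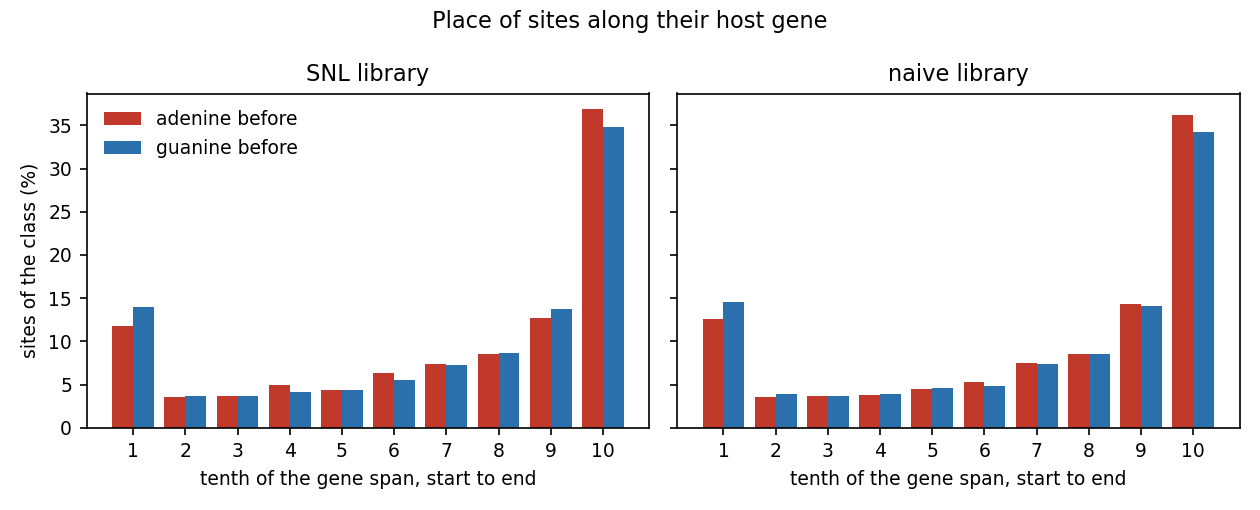
Percentage of the sites of a class (vertical axis) in each 10% of the host gene's span from start to end (horizontal axis), for A-before sites (red) and G-before sites (blue) in the SNL and naive libraries. Both classes peak in the final 10%, at 36.8% of A-before and 34.8% of G-before sites in the SNL library, with a smaller peak in the first.

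Close neighbours, counted over both classes together, were about as frequent at A-before as at G-before sites. Another site of the same list and strand lay within 50 bases of 26.8% of A-before sites (25.2 to 28.3) and 28.2% of G-before sites (27.5 to 29.0) in the SNL list, and of 24.6% (22.9 to 26.4) and 27.1% (26.3 to 27.9) in the naive list, with intervals that overlapped in each list. An A-before neighbour lay within 50 bases of 6.78% of A-before sites (5.93 to 7.70) and 5.46% of G-before sites (5.11 to 5.83) in the SNL list. In the naive list the shares were 5.04% (4.20 to 6.00) and 4.91% (4.54 to 5.32). The SNL intervals did not touch. A G-before neighbour lay near fewer A-before sites, 22.2% (20.7 to 23.6) against 24.7% of G-before sites (24.0 to 25.3) in the SNL list. The naive list gave 21.0% (19.4 to 22.7) and 23.9% (23.1 to 24.6). Sites with no neighbour of either class were shared less often than clustered ones in both classes. Without a neighbour, 10.3% of A-before and 18.3% of G-before sites were shared in the SNL list, and with one 19.2% and 31.9%. The gap between the classes was present in isolated and in clustered sites alike.

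A-before sites lay in 2964 of the 6859 genes that held a site of either list. Of these, 2547 genes also had G-before sites and 417 had A-before sites alone, and 372 of the 417 had 1 site in all. The other 3895 genes had G-before sites alone. The share of A-before sites barely moved with the number of sites in a gene, from 16.3% in genes with 1 site to 17.7% in genes with 20 or more. Host genes of A-before sites in both lists numbered 871, 40.3% of 2159 in the SNL list and 52.0% of 1676 in the naive list. For G-before hosts 3323 were in both, 63.7% of the SNL and 73.0% of the naive genes, but a gene held fewer A-before than G-before sites. Among genes with 1 site of the class in the SNL list, 29.3% of A-before hosts (27.0 to 31.6) and 42.4% of G-before hosts (40.4 to 44.5) held that class in the naive list too. Among those with 1 such site in the naive list, 43.6% (40.8 to 46.4) and 56.3% (54.1 to 58.4) held it in the SNL list. A host gene was any RefSeq gene whose span covered the site, and where the gene's strand was known 94.1% of A-before and 94.4% of G-before pairings were on the same strand.

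The genes with the most A-before sites included large genes of the cytoskeleton. Map1a, a microtubule-associated protein gene on chromosome 2, held 34 A-before and 117 G-before sites, and Map1b, its relative on chromosome 13, held 32 and 62. Plec and Dst encode plakins that link cytoskeletal filaments, Dst being the gene whose loss causes a sensory neuropathy in mice. Plec held 20 A-before and 119 G-before sites, and Dst 16 and 43. Sptbn1, a beta-spectrin gene, held 19 and 47, and Prune2 held 25 and 57. Akap12, a kinase scaffold gene, held 14 and 47, Hspa12a, of the Hsp70 family, 14 and 32, Ahnak, a giant scaffold protein gene, 13 and 65, and Phf24 13 and 52. Jun, with 13 A-before and 17 G-before sites, had as many A-before sites as the last of these. The 10 genes together held 200 A-before sites.

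**Figure D4:**
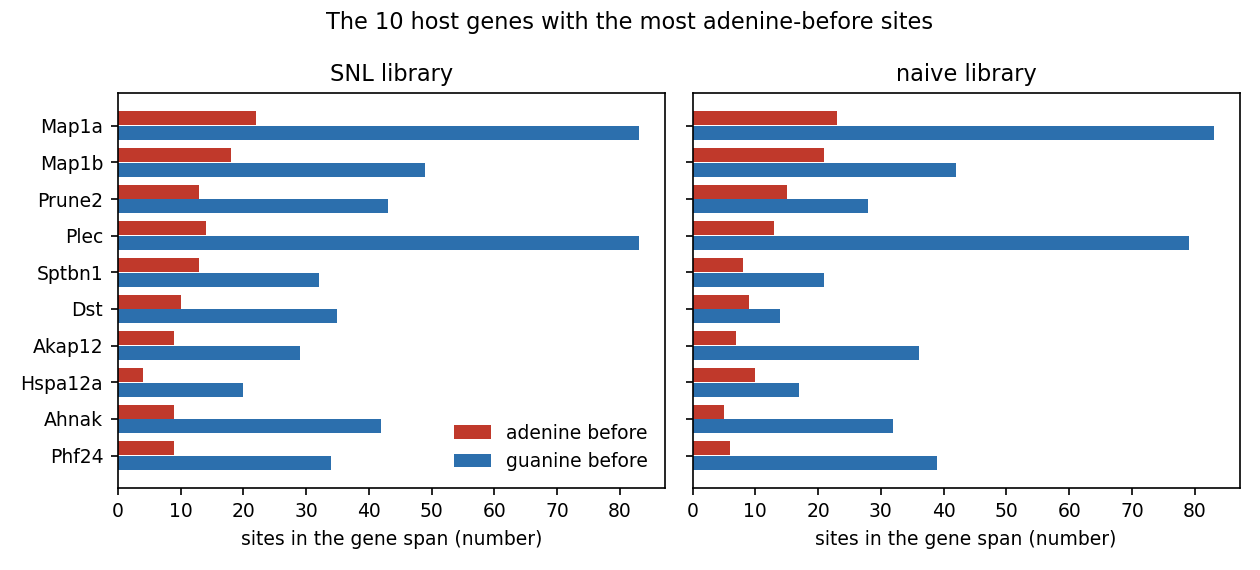
Number of sites (horizontal axis) in the 10 host genes with the most A-before sites over both lists, with A-before sites in red and G-before sites in blue, in the SNL and naive libraries. G-before sites outnumber A-before sites in each of the 10 genes, as with 22 A-before and 83 G-before sites in Map1a in the SNL library.

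In Map1a, 22 A-before and 83 G-before sites were in the SNL list and 23 and 83 in the naive list, with 11 and 49 in both. Of these, 1 of 22 A-before and 22 of 83 G-before sites of the SNL list had 2 or more mutated reads, and 1 of 23 and 24 of 83 of the naive list. Median k was 10 at A-before and 14 at G-before sites in the SNL list, and 9 and 14 in the naive list. In Map1b the median k was 11 at A-before and 13 at G-before sites in the SNL list, while in the naive list it was 16 and 11, higher at A-before sites. There 1 of 18 A-before and 12 of 49 G-before sites of the SNL list had 2 or more mutated reads, and 2 of 21 and 8 of 42 of the naive list. Repeated mutation was thus less frequent at A-before sites in both genes and lists, on few A-before sites. Sharing differed little in Plec, where 7 of 14 A-before and 43 of 83 G-before sites of the SNL list were shared, and in Sptbn1, with 2 of 13 and 6 of 32. In Dst it was higher for A-before sites in the SNL list, with 3 of 10 and 6 of 35, and lower in the naive list, with 3 of 9 and 6 of 14. In each of the 10 genes with the most A-before sites, and in both lists, repeated mutation was less frequent at A-before sites. Sharing varied between these genes, again on few A-before sites.

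Genes differed in what share of their sites was A-before. Among the 2000 genes with 5 or more sites the median share was 16.7% (quartiles 7.89 and 25), 424 had no A-before site and 56 had at least as many A-before as G-before sites. The highest shares were in Arglu1, with 5 A-before sites of 5, and Hcfc1, a transcriptional cofactor gene, with 6 of 8. Next came Dnajc5, the gene of a synaptic vesicle chaperone, and Hnrnpa2b1, an RNA-binding protein gene, with 4 of 6 each. Stmn2, the gene of a growth-cone protein that binds tubulin, had 6 of 10. At the other end, Dmtn had 22 sites and none A-before, Dlgap3, a postsynaptic scaffold gene, 19, Snrnp70, of the U1 splicing particle, 19, Scn4b, a sodium channel beta subunit gene, 18, and Lrrc8a, of the volume-regulated anion channel, 17.

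In a list of 28 regeneration-associated genes, 20 had a site and 15 an A-before site. A-before sites were 58 of their 183 sites (31.7%, 25.03 to 39.0), against 17.8% of all sites, and 29.4% (22.3 to 37.3) without Jun. By library the share was 44 of 151 in the SNL list and 26 of 78 in the naive list. Stat3, a transcription factor activated by nerve injury, had 6 A-before of 11 sites, Basp1 5 of 9, Flrt3 5 of 11, Gap43, a growth-cone protein gene, 3 of 5, and Tubb3 6 of 22. In contrast Bdnf had 0 of 7, Socs3 0 of 5, Tet3 0 of 5 and Gadd45a 0 of 4. Sites of 1 gene are not independent, and the list was chosen with earlier results of these data known.

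Sensory neuron channel and receptor genes had 25 A-before of 158 sites (15.8%, 10.5 to 22.5), in 11 of the 12 genes with a site. The sodium channel gene Scn10a had 1 of 34, while Ntrk3, which encodes a neurotrophin receptor, had 3 of 11, and Ret, the GDNF receptor tyrosine kinase gene, 4 of 24. Genes of the m6A machinery had 7 of 37 (18.9%, 7.96 to 35.2). Of these, 4 were in Rbm15b, 1 in the demethylase gene Fto, and 1 each in the reader genes Ythdf1 and Ythdf3. Mettl3 and Mettl14 held no site.

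MeRIP-seq gave a readout of the host genes that miCLIP did not use. No gene was called by edgeR's quasi-likelihood test in either condition, that is 0% of 14705 genes tested, 0 of them among the 2791 tested A-before hosts. That fit held no term for replicate number. With replicate number as a block, A-before hosts were called in both conditions, as given at the end without the share of all genes called. At an unadjusted p under 0.05, 58 A-before hosts were higher and 59 lower in IP over input at SNLD1 (2.08% and 2.11%), against 242 and 366 of all genes tested (1.65% and 2.49%). In naive mice 111 were higher and 66 lower (3.98% and 2.36%), against 357 and 558 of all genes (2.43% and 3.79%). Among genes with G-before sites alone 2.35% were higher and 2.35% lower at SNLD1, and 3.05% and 3.48% in naive mice. DESeq2 called 0 genes at SNLD1 and 1 in naive mice, Map3k11, an A-before host with a log2 enrichment of 5.10 by DESeq2 (adjusted p = 0.0270). Map3k11 averaged 16.2 CPM in naive IP and 0.497 CPM in naive input, a level near 0, and 2 of its 17 sites were A-before. The median standard error of a log2 enrichment was 1.09 at SNLD1 and 1.08 in naive mice.

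The median log2 enrichment, IP over input, was 0.48 at SNLD1 and 0.50 in naive mice for genes with both classes of site. It was 0.17 and 0.02 for the 362 tested genes with A-before sites alone, 0.21 in both conditions for genes with G-before sites alone, and -0.08 and -0.15 for genes with no site. Genes with 1 site allow a closer comparison. Their median was 0.12 at SNLD1 and -0.01 in naive mice where that site was A-before (319 genes), and 0.04 and 0.03 where it was G-before (1690 genes). The quartiles of these single-site groups, -0.85 to 0.92 and -0.89 to 0.93 at SNLD1, overlapped almost wholly.

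The A-before hosts of smallest p did not pass. Fem1a averaged 121 ± 59.7 CPM in naive IP (SD, n = 3) and 11.98 ± 0.370 CPM in naive input (n = 2), a log2 difference of 3.33 (SE 1.04, edgeR adjusted p = 0.71). Nap1l5 averaged 880 ± 655 CPM in SNLD1 IP (n = 3) and 133 ± 6.02 CPM in SNLD1 input (n = 2), a log2 difference of 2.73 (SE 0.99, edgeR adjusted p = 0.791). Tecr was lower in IP in both conditions, at 165 ± 152 CPM in IP and 2051 ± 397 CPM in input at SNLD1, with a log2 difference of -3.63 (SE 1.13, edgeR adjusted p = 0.791). The spread between IP libraries was close to their mean in Tecr and Nap1l5.

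The RNA-seq comparison of SNLD1 with naive wild-type ganglia asked which host genes change with injury. Its p-values, like those below, measure the spread between libraries, which the labels do not tie to separate animals. Of the 2640 tested A-before hosts 32 rose (1.21%) and 3 fell (0.114%), while 0.948% of all genes tested rose and 0.0752% fell. Among genes with G-before sites alone 32 of 3242 rose (0.987%). The shares of A-before hosts were near the background. A site needs reads, so a gene that rose could become a host through the SNL list. Nothing is therefore read from the share of hosts that rose. Without SNLD1 library 1 or 3, or naive library 1 or 3, the number of A-before hosts that rose was 20, 14, 11 and 18, in that order. None fell without any of these 4 or without SNLD1 library 2. The share of all genes called in these fits is not given here.

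Among A-before hosts that rose, Atf3, which encodes a transcription factor of the injury response, stood at 380, 243 and 505 CPM in SNLD1 libraries, against 8.51, 9.41 and 11.1 CPM in naive ones. Its log2 change was 5.27 (SE 0.27, adjusted p = 2.49e-09 by edgeR). Flrt3, a leucine-rich repeat membrane protein gene, had 760, 830 and 1095 CPM, against 78.6, 114 and 85.5 CPM (log2 3.27, SE 0.19). Both genes separated the groups completely. Sox11, a transcription factor gene of growing neurons, averaged 185 ± 47.4 CPM at SNLD1 and 27.3 ± 9.41 CPM in naive mice (SD, n = 3 each). Ifit1, an interferon-induced gene, averaged 498 ± 209 and 90.9 ± 27.8 CPM, and Smim3 112 ± 14.6 and 27.0 ± 3.55 CPM. These 5 kept their call without any 1 library.

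The A-before sites of these 5 genes were in the SNL list and not in the naive list. Atf3 had 3 A-before and 12 G-before sites, Sox11 2 and 4, Ifit1 1 and 2 and Smim3 1 and 4, with none in the naive list. Flrt3 had 5 A-before and 6 G-before sites in the SNL list, and 1 of the G-before sites was in the naive list too. Over the 64 host genes that rose, the SNL list held 60 A-before among 273 sites (22.0%, 17.2 to 27.4) and the naive list 19 among 96 (19.8%, 12.4 to 29.2). In the 5808 genes that were not called, these shares were 17.3% and 16.4%. A gene counted as a host through a site in either list. Nothing is therefore read here from these 5 being hosts, or from the larger number of SNL sites in genes that rose. The intervals of their A-before share overlapped between the libraries.

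Smad9, Shox2 and Lrrn1 were the A-before hosts that fell. Lrrn1 averaged 105 ± 6.42 CPM at SNLD1 and 155 ± 9.32 CPM in naive mice (SD, n = 3 each; log2 -0.57, SE 0.13, adjusted p = 0.0491 by edgeR). Smad9 averaged 4.98 ± 0.258 and 9.89 ± 2.10 CPM, and Shox2 9.17 ± 0.687 and 18.1 ± 5.09 CPM. Each of these calls rested on particular libraries. Leaving out any SNLD1 library, or naive library 1 or 3, ended the call of each, with adjusted p of 0.0731 to 0.256, and leaving out naive library 2 ended that of Lrrn1 (0.0674).

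The genotype comparisons asked which host genes change when Mettl14 is deleted, and they share their wild-type libraries with the injury comparison. At SNLD1, 14 A-before hosts were higher (0.530%) and 21 lower (0.795%) in Mettl14cKO than in wild type, with 0.948% of all genes tested higher and 0.512% lower. Among genes with G-before sites alone 19 were higher (0.586%) and 13 lower (0.401%). In naive mice 4 A-before hosts were higher (0.152%) and 3 lower (0.114%), with 0.173% and 0.113% of all genes. The naive shares were near the background. At SNLD1 the share higher was below the background and the share lower above it, and both counts moved with single libraries. The SNLD1 counts, higher then lower, were 3 and 2 without Mettl14cKO library 1, 6 and 5 without library 2, 2 and 7 without wild-type library 1, 9 and 14 without library 2, and 5 and 2 without library 3. The naive counts were 2 and 0 without Mettl14cKO library 2 or wild-type library 1, 3 and 1 without Mettl14cKO library 3, and 3 and 0 without wild-type library 3. The 3 satellite glia markers summed to 1533 to 1874 CPM in Mettl14cKO and 2164 to 3449 CPM in wild type at SNLD1, with no overlap, while the 4 Schwann cell markers summed to 3493 to 3653 and 2670 to 4569 CPM. In naive mice the satellite glia sums overlapped, at 1873 to 3222 CPM in Mettl14cKO and 2453 to 3383 CPM in wild type. The part of satellite glia in the results was not tested.

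Prune2, next to Map1a and Map1b in number of A-before sites, was lower in Mettl14cKO in both conditions. At SNLD1 it had 266, 259 and 306 CPM in Mettl14cKO, against 499, 546 and 559 CPM in wild type (log2 -0.95, SE 0.15, edgeR adjusted p = 0.00388). In naive mice it had 278, 343 and 377 CPM in Mettl14cKO, against 644, 554 and 654 CPM in wild type (log2 -0.89, SE 0.15, edgeR adjusted p = 0.0110). The groups did not overlap in either condition. The SNLD1 call stood without any 1 library. The naive call was lost without Mettl14cKO library 2 (adjusted p = 0.05003) or wild-type library 1 (0.0696) or 3 (0.0566).

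Nefh, the heavy neurofilament subunit gene with 10 A-before of 31 sites, moved the same way. At SNLD1 it had 326, 305 and 300 CPM in Mettl14cKO, against 562, 553 and 643 CPM in wild type (log2 -0.92, SE 0.14, edgeR adjusted p = 0.00360), and this call too stood without any 1 library. In naive mice it averaged 413 ± 9.15 CPM in Mettl14cKO and 693 ± 98.1 CPM in wild type (SD, n = 3 each; log2 -0.75, SE 0.14, edgeR adjusted p = 0.0305). The naive call was lost without any Mettl14cKO library or wild-type library 1 or 3, with adjusted p of 0.0641 to 0.165. Of the remaining A-before hosts named as lower, Atf3 (log2 -1.08), Raph1 (-0.997), which encodes lamellipodin, and Gfra1 (-0.89), a GDNF co-receptor gene, were called at SNLD1, and Cyb5d2 (-1.32) in naive mice. Each of these 4 lost its call without some libraries. Atf3 lost it without Mettl14cKO library 1 or wild-type library 1 or 3 (adjusted p 0.0635 to 0.140), Raph1 without Mettl14cKO library 1 or 2 or wild-type library 1 or 3 (0.0561 to 0.0868), and Gfra1 without Mettl14cKO library 1 or 2 or wild-type library 3 (0.0840 to 0.132). Cyb5d2 lost it without any 1 of the 6 naive libraries (0.0541 to 0.162).

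Nrg1, the gene of neuregulin 1, a growth factor for Schwann cells, was higher in Mettl14cKO and had 2 A-before of 5 sites. It stood at 74.6, 71.9 and 73.5 CPM in Mettl14cKO, against 24.7, 19.8 and 27.2 CPM in wild type at SNLD1 (log2 1.62, SE 0.22, edgeR adjusted p = 0.00145). In naive mice it had 58.0, 112 and 87.2 CPM in Mettl14cKO, against 33.4, 23.0 and 34.5 CPM in wild type (log2 1.49, SE 0.22, edgeR adjusted p = 0.00359). Its calls stood without any 1 library in both conditions. Shoc2, a scaffold gene of the Ras pathway with 1 A-before of 4 sites, averaged 333 ± 31.0 CPM in Mettl14cKO and 164 ± 9.86 CPM in wild type at SNLD1, and 339 ± 79.7 and 150 ± 32.3 CPM in naive mice (SD, n = 3 each). Its adjusted p by edgeR was 0.00988 and 0.00597. It lost the SNLD1 call without Mettl14cKO library 1 (0.0553) or wild-type library 1 (0.0569), and the naive call without Mettl14cKO library 2 (0.05003) or wild-type library 1 (0.0609).

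**Figure D5:**
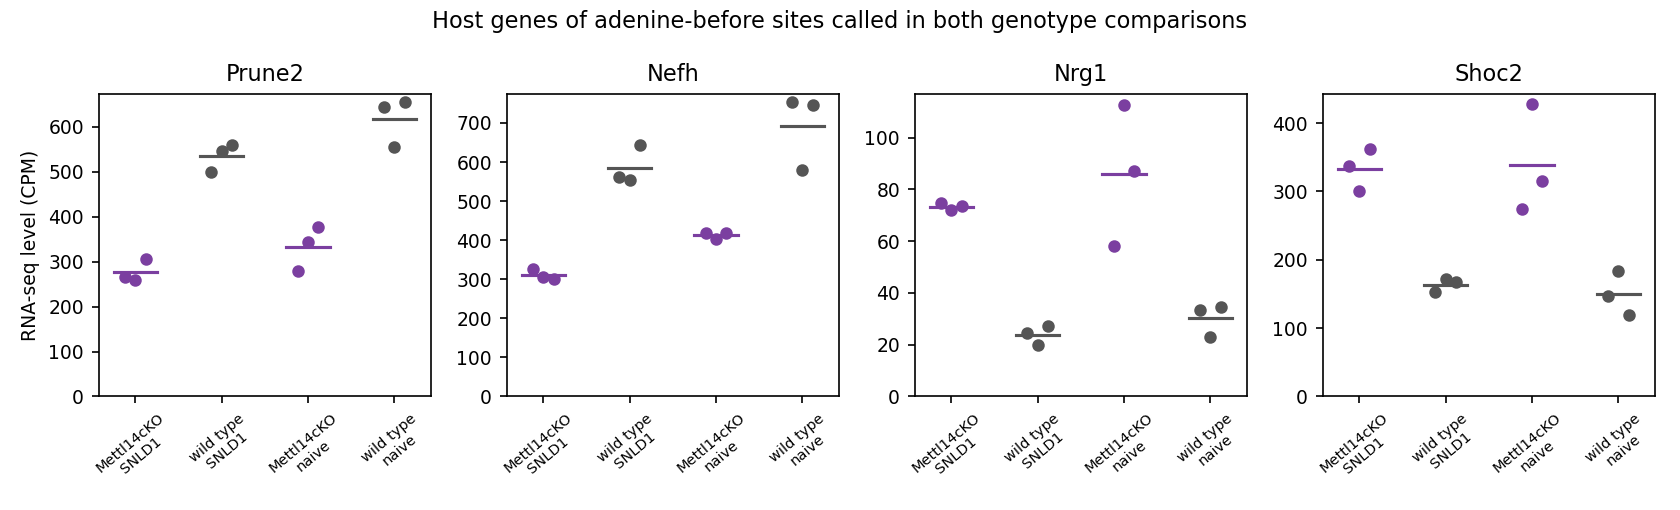
RNA-seq level in CPM (vertical axis) of Prune2, Nefh, Nrg1 and Shoc2 in each library of the 4 groups (horizontal axis), with Mettl14cKO in purple left of wild type in grey; points are libraries and lines are means of 3. Mettl14cKO and wild type do not overlap within a condition, with Prune2 at 259 to 306 CPM in Mettl14cKO and 499 to 559 CPM in wild type at SNLD1.

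The remaining A-before hosts named as higher in Mettl14cKO at SNLD1 were Apod, a lipocalin gene with 4261 ± 1926 CPM in Mettl14cKO and 1718 ± 126 CPM in wild type, Ncmap, a gene of noncompact myelin with 211 ± 73.4 and 93.0 ± 21.4 CPM, and Agpat3 with 9.63 ± 1.19 and 4.55 ± 0.796 CPM (SD, n = 3 each). In naive mice Rnf146, a ubiquitin ligase gene, had 198 ± 16.3 CPM in Mettl14cKO and 103 ± 8.99 CPM in wild type. Apod lost its call without Mettl14cKO library 1 or 2 or wild-type library 1 or 3 (adjusted p 0.0553 to 0.0785), Ncmap without Mettl14cKO library 1 or 2 or wild-type library 1 (0.0523 to 0.0610), and Agpat3 without any 1 of the 6 SNLD1 libraries (0.0537 to 0.132). Rnf146 lost it without Mettl14cKO library 2 or 3 or any wild-type library (0.0508 to 0.0943).

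Map1a and Map1b, which lead in A-before sites, did not pass in any RNA-seq comparison. Map1a differed by -0.28 log2 units (SE 0.22, edgeR adjusted p = 0.617) and Map1b by -0.27 (SE 0.30, edgeR adjusted p = 0.738), Mettl14cKO minus wild type at SNLD1. Of the regeneration-associated genes 10 of 26 tested rose with injury by edgeR, where 0.948% of all genes tested rose. DESeq2 called 11 higher, and 17 were higher at an unadjusted p under 0.05, as were 4.84% of all genes tested. None fell by any of these. The median log2 change of the 26 was 0.88, against -0.01 over all genes tested. Among the 15 with an A-before site 6 rose by edgeR. Of these, Atf3, Sox11, Flrt3 and Smad1 had A-before sites in the SNL list alone. The list was chosen with earlier results of these data known, so nothing is read from these counts. At SNLD1 2 of 26 were lower in Mettl14cKO, Atf3 and Klf6, both with A-before sites, with a median of -0.14 against 0.004 over all genes tested, of which 0.512% were lower. There DESeq2 called 5 lower, and at an unadjusted p under 0.05 9 were lower and 0 higher, against 6.91% and 7.46% of all genes tested. In naive mice edgeR and DESeq2 called 0 of 26. There 2 were higher and 3 lower at an unadjusted p under 0.05, against 4.33% and 3.27% of all genes tested. The share of all genes called by DESeq2 is not given here for any RNA-seq comparison. Nothing is read from the genotype counts of this list either.

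Of the channel and receptor genes 1 of 15, Scn10a, was lower in Mettl14cKO at SNLD1, where 0.512% of all genes tested were lower. There DESeq2 called 2 lower, again with no share of all genes given here, and 1 was higher and 3 lower at an unadjusted p under 0.05. With injury and in naive Mettl14cKO mice edgeR and DESeq2 called 0 of 15. At an unadjusted p under 0.05, 2 were higher and 0 lower with injury, and 0 differed in naive Mettl14cKO mice. Of the 15 m6A machinery genes edgeR and DESeq2 called 0 in each RNA-seq comparison. At an unadjusted p under 0.05, 4 of them were lower in Mettl14cKO at SNLD1, 1 was higher and 2 lower in naive mice, and 0 differed with injury. At that threshold 6.91% of all genes tested were lower and 7.46% higher in Mettl14cKO at SNLD1, and 3.27% were lower and 4.33% higher in naive mice.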

How the data were processed

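The site lists were deposited by the authors, 1 per miCLIP library, with a position, strand, 5-letter context, reads over the base (k), mutated reads and their ratio, a value kept as the deposited score of a site. Which site caller and filters were used is not given in the sources used here. RNA-seq and MeRIP-seq values are gene counts deposited by the authors. Trimmomatic, STAR, DESeq2 and mm10 are named in the submitters' processing notes, without versions. Libraries were made from poly(A) RNA by Smart-seq2, per the labels' protocols.

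Classes were read from the second letter of the context. Sites were compared between classes with exact binomial (Clopper-Pearson) and Newcombe 95% intervals, which cover counting error only, since reads without molecular identifiers are not independent molecules. A shared site was the same base and strand in both lists. Hosts came from RefSeq spans in mm10 (GRCm38.p6). Of 24421 gene symbols of the RNA-seq table, 23204 matched RefSeq, 1096 by synonym and 121 not at all.

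Counts were fitted over 4 groups with edgeR 4.0.16 (TMM, filterByExpr, quasi-likelihood F test, Benjamini-Hochberg over all genes tested, threshold 0.05), with DESeq2 1.42.0 as an alternative. CPM values were computed from the counts, and the scripts were tested on simulated data. Genes named in RNA-seq comparisons were A-before hosts that passed, averaged at least 5 CPM and did not overlap between groups, the 5 with the largest change in each direction. In MeRIP-seq, where none passed, the 3 of smallest p in each direction were eligible. Sites named were the 10 shared A-before sites with the most reads. The members and gene lists were chosen with earlier results of these data known.

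The weighting within genes and the comparison of hosts with 1 site were added after seeing the data. Alternatives were the depth and mutated-read minimum, the width of a shared site, isolated sites, host assignment, normalization, filter, samples fitted, replicate block and each library left out. Python 3.11.15, numpy 2.4.6, pandas 2.3.3, scipy 1.17.1, matplotlib 3.10.9 and R 4.3.3 were used.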

Additional observations from a re-analysis of the deposited data

How the results depend on the processing

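Site results are given for the SNL list and then the naive list. A-before sites were 18.6% and 19.1% of sites with 20 or more reads, and 3.85% and 3.03% of sites with 3 or more mutated reads. Under limits chosen after seeing the data they were 16.1% and 15.4% at 5 or more reads, and 7.67% and 6.12% at 2 or more mutated reads. The ratio of median k, A-before over G-before, was 1 in both lists, 1.02 and 0.979 at 20 or more reads, and 1.36 and 1.29 at 3 or more mutated reads. It was 0.75 for isolated SNL sites, 0.875 at 5 or more reads in the naive list, and 1.11 at 2 or more mutated reads in the SNL list. The difference in median mutated share, 0 in both lists, was -0.00652 at 20 or more reads in the SNL list, -0.0837 and -0.0625 at 3 or more mutated reads, and -0.0278 at 2 or more in the SNL list. The difference in sharing was -19.7 and -28.3 points at 20 or more reads, -15.1 and -15.2 at 5 or more, -8.07 for isolated SNL sites, and -13.5 at 2 or more mutated reads in the SNL list. At 3 or more mutated reads it was -14.3 in the SNL list, and it turned to 14.6 in the naive list (-18.1 to 25.2), where 9 A-before sites were left. The cause was not tested. The difference in sites with 2 or more mutated reads was -26.7 and -30.7 points at 20 or more reads, -12.6 and -14.5 at 5 or more, and -5.30 and -5.56 for isolated sites. Host genes of A-before sites numbered 74 and 53 at 20 or more reads, and 16 and 10 at 3 or more mutated reads, where fewer sites are left. Sharing within 5 bases, G-before weighting to A-before coverage and leaving out Map1a kept the direction of the gaps.

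For A-before hosts, leaving out 1 library gave 11 to 39 higher and 0 to 4 lower with injury, 2 to 5 and 0 to 2 in naive Mettl14cKO, 2 to 18 and 2 to 22 in Mettl14cKO at SNLD1, and 0 in MeRIP-seq. With only the groups compared in the fit, injury gave 19 and 0, and Mettl14cKO at SNLD1 8 and 12. Without the filter, naive Mettl14cKO gave 15 and 10, Mettl14cKO at SNLD1 32 and 49, and MeRIP-seq naive 1 lower. DESeq2 gave 5 lower with injury, 7 lower in naive Mettl14cKO, 25 and 66 in Mettl14cKO at SNLD1, and 1 higher in MeRIP-seq naive. Whether replicate numbers pair the libraries is not settled here. Between the groups of each comparison, the correlations of same-numbered libraries ran from -0.04 to 0.62 in RNA-seq and from -0.35 to 0.002 in MeRIP-seq. The 0.62 was that of the wild-type libraries numbered 2, SNLD1 against naive. IP libraries at SNLD1 and in naive mice were not compared in this way over all genes. In some genes their levels went with replicate number. Calca had 2109, 1801 and 5248 CPM in SNLD1 IP libraries 1 to 3, and 1760, 1965 and 5091 CPM in naive ones. Akap12 had 1184, 1517 and 393 CPM, and 1282, 1616 and 393 CPM. Klf9 did so less, with 197, 60.0 and 96.0 CPM, and 219, 143 and 72.4 CPM. Such genes were not counted, and a difference of this kind enters the spread in the fit without the block. With the replicate block, MeRIP-seq gave 17 higher and 148 lower at SNLD1 and 17 and 160 in naive mice, naive Mettl14cKO 6 lower, and Mettl14cKO at SNLD1 32 lower. The block gave 39 higher and 3 lower with injury, 5 higher in naive Mettl14cKO and 17 higher at SNLD1. The share of all genes called is not given here for any of these settings. Nothing particular to A-before hosts is therefore read from these counts.

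Each miCLIP condition had 1 library, so nothing here separates injury from library. A site with under 4 reads cannot show 2 mutated reads. Spans without exons leave the place within transcripts unresolved.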
